A study of Homo sapiens with 38 samples.

Results

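The genes described here are those of the cohesin complex and of the factors that load it onto chromatin and release it: SMC1A, SMC3, RAD21, STAG1, STAG2, NIPBL, MAU2, WAPL, PDS5A and PDS5B. They were taken by name, and their symbols were matched to the Ensembl identifiers of the raw gene count table, where all 10 were found among 18011 genes. All 10 passed the filter on low counts in every comparison. The set was selected on the drug differences of STAG2 in these libraries, so values of STAG2 are given as a description, without a test. The other 9 genes were chosen by function.

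Cohesin is a protein ring that encircles DNA. SMC1A and SMC3 are its ATPase arms, RAD21 closes the ring, and either STAG1 or STAG2 binds RAD21 as the SA subunit. NIPBL and MAU2 form the loader, WAPL releases the ring from chromatin, and PDS5A and PDS5B bind the ring and take part both in its release and in its acetylation. The complex holds sister chromatids together until anaphase and extrudes chromatin loops, and STAG2 is a recurrently mutated gene in several cancers.

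STAG2 (ENSG00000101972.17) lies on chromosome X at 123960212 to 124422664 on the plus strand of GRCh38, and STAG1 (ENSG00000118007.11) on chromosome 3 at 136336233 to 136752403 on the minus strand. Their promoters are shown because both genes had lower RNA levels in every line 6 h after either drug. The same held for SMC1A and MAU2, whose promoters are not shown (SMC1A differed by only -0.004 in PFEIFFER with vorinostat). The RefSeq promoter table (GRCh38.p14) held 9 of the 10 genes. Each run below is the part of the 300-base window that lies outside every GENCODE 29 exon, which for STAG2 is chrX:123960310-123960518, from 250 to 42 bases before the most upstream of 3 RefSeq starts and inside the GENCODE gene, downstream of its first base, and for STAG1 is chr3:136752404-136752628, from 250 to 26 bases before its start. Capitals mark matches on either strand to the CCAAT box (CCAAT, or ATTGG on the other strand) and to the GC box (GGGCGG, or CCGCCC on the other strand).
STAG2: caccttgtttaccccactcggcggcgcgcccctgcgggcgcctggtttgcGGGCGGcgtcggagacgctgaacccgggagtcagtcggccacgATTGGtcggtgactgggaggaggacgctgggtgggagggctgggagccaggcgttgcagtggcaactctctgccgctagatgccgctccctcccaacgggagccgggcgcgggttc
STAG1: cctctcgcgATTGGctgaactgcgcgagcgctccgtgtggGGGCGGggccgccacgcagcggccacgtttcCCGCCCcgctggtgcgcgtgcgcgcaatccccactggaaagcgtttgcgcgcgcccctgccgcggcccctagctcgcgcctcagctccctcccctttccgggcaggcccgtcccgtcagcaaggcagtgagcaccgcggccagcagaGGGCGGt

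Both stretches held 1 CCAAT match, which 28.7% of all 35116 promoter windows held in the same 209 positions as STAG2, and 30.3% in the 225 positions of STAG1. STAG2 had 1 GC box match (36.9% of windows had at least 1) and STAG1 had 3 (39.5% of windows had at least 1). An E2F-type match (TTTCCCGC on either strand) occurred once in STAG1, where it overlaps a GC box match and where 1.26% of windows had one, and not in STAG2 (1.17% of windows). Neither stretch held the cyclic AMP response element (TGACGTCA), which 1.32% and 1.14% of windows held. These matches describe the letters of the 2 windows and were not tied to any measured response.

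RNA was measured by sequencing in 6 cell lines of diffuse large B-cell lymphoma, an aggressive B-cell cancer: TOLEDO, PFEIFFER, OCILY1, WSUDLCL2, SUDHL4 and SUDHL6. Over 6 h or 14 days, the cultures were given the solvent DMSO or an inhibitor of zinc-dependent histone deacetylases, either pracinostat or vorinostat, each of which carries a hydroxamic acid group. At 6 h there were 6 DMSO libraries (group DMSO), 6 pracinostat libraries and 5 vorinostat libraries, all from the same 6 lines except that no vorinostat library of SUDHL6 was analysed here. At 14 days there were 5 libraries each of pracinostat, of vorinostat, and of the DMSO cultures titled DMSOP and DMSOV, which were read as the controls of pracinostat and of vorinostat by their last letter. None of the 14-day libraries was of SUDHL6. Doses were not given in the sources used here. Each line gave 1 library per treatment and time, so the cell line was the replicate, and both drugs shared their DMSO libraries at 6 h. The lines are established and grown in culture; they hold no other cell types by design.

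Library totals ranged from 3188528 to 8919622 counts over the 37 libraries, and the 10 genes had between 57 and 8382 counts in a library. Of the B-lineage markers, MS4A1 ranged from 355.8 to 6548.2 CPM (read counts relative to the library total), CD79A from 47.8 to 1394.1 CPM and PAX5 from 121.1 to 793.2 CPM. These markers, CD79B, CD22 and CD74 were above 0 in all libraries. Markers of other cell types were low, with summed CPM of at most 18.2 for NK cells, 37.1 for myeloid, 78.9 for stromal and 36.4 for endothelial cells. The T cell list was higher, and its sum reached 1214.4 CPM through CD8A in PFEIFFER (at most 1212.6 CPM, against 8.07 CPM in any other line). TRAC, of the same list, reached 100.4 CPM in WSUDLCL2 and 59.9 CPM in the other lines, CD3E 3.35 CPM and CD3D 3.26 CPM. CPM here use totals adjusted by TMM scaling, and every level is relative to the other RNA of the library, so less of a transcript per cell and fewer cells that hold it cannot be told apart.

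In DMSO, the ring genes RAD21 and SMC3 were the most abundant of the set per exon length. Over the 16 DMSO libraries the median level, as CPM per kilobase of merged exon (RPKM), was 106.5 for RAD21 (range 48.8 to 156.8), 53.79 for SMC3 (31.44 to 66.98) and 25.93 for SMC1A (13.93 to 65.07). PDS5A at 26.17 RPKM (18.27 to 32.14) and STAG2 at 24.07 RPKM (16.45 to 63.71) had ranges that overlapped with that of SMC1A. WAPL followed at 16.51 RPKM, NIPBL at 11.62 RPKM and PDS5B at 7.809 RPKM, and the lowest were MAU2 at 6.384 RPKM (5.069 to 9.649) and STAG1 at 6.302 RPKM (2.879 to 12.42). The ranges of every pair of neighbours in this order overlapped. TOLEDO had the highest DMSO levels of both X-linked genes, STAG2 and SMC1A, and also of STAG1 on chromosome 3 and NIPBL on chromosome 5. STAG2 stood at 459.5 to 521.6 CPM in its 3 DMSO libraries, against 134.7 to 241.4 CPM in the other 5 lines. SMC1A likewise stood at 581.6 to 682.2 CPM in TOLEDO, against 146.1 to 298.2 CPM elsewhere. STAG1 stood at 73.14 to 97.48 CPM in TOLEDO, against at most 70.01 CPM elsewhere (SUDHL4). For NIPBL these were 182.5 to 210.4 CPM and at most 169.2 CPM (PFEIFFER).

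**Figure D1:**
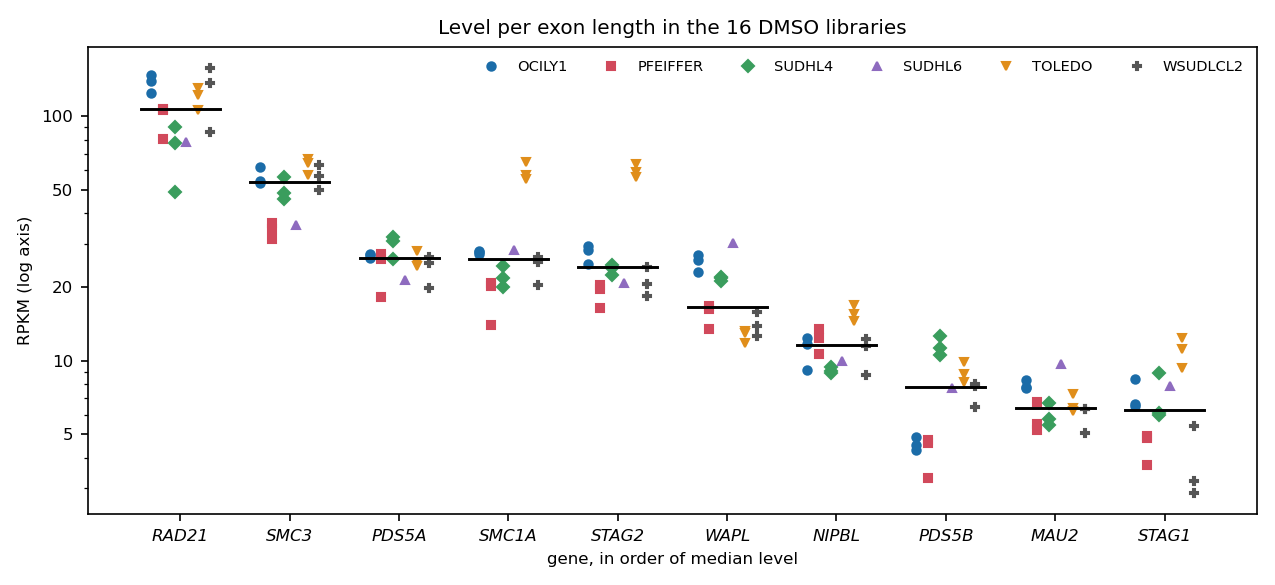
Level of each gene in RPKM (log axis) in the 16 DMSO libraries, 1 symbol per library with the cell line given by colour and shape; black bars are medians over libraries. RAD21 is highest (median 106.5 RPKM) and STAG1 lowest (6.302 RPKM), and TOLEDO stands above the other lines for STAG2, SMC1A, STAG1 and NIPBL.

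STAG2, the more abundant of the SA subunits, was lower with either drug in every line and at both times. At 6 h the DMSO libraries held 134.7 CPM at the lowest, 183.3 CPM at the median and 482.7 CPM at the highest. With pracinostat these were 69.98, 87.69 and 174.7 CPM over the same 6 lines. With vorinostat the 5 libraries held 73.93 CPM in OCILY1, 81.23 in PFEIFFER, 68.93 in SUDHL4, 154.4 in TOLEDO and 61.88 in WSUDLCL2. TOLEDO was the highest library in each group, so that the groups overlapped although each line moved the same way. The fitted difference was -1.07 on the log2 scale with pracinostat (SE 0.12, 2.09 times lower, 6 of 6 lines) and -1.33 with vorinostat (SE 0.14, 2.52 times lower, 5 of 5 lines). Of the 15315 genes tested, 4.49% had a difference as low or lower with pracinostat and 4.02% with vorinostat.

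At 14 days STAG2 stood at 241.4, 160.2, 183.4, 459.5 and 167.7 CPM in the DMSOP libraries of OCILY1, PFEIFFER, SUDHL4, TOLEDO and WSUDLCL2. The pracinostat libraries of those lines, in the same order, held 131.4, 77.55, 87.94, 258.5 and 102.7 CPM. With DMSOV the values were 232.4, 167.5, 202.0, 521.6 and 198.0 CPM, and with vorinostat 112.6, 68.12, 62.84, 163.7 and 85.33 CPM. All 5 vorinostat libraries lay below all 5 DMSOV libraries, a separation that 5.62% of all tested genes showed in either direction, while the TOLEDO library kept the pracinostat group overlapping with DMSOP. The fitted differences were -0.89 with pracinostat (SE 0.10, 1.85 times lower) and -1.35 with vorinostat (SE 0.11, 2.55 times lower), each in 5 of 5 lines. Within lines they spanned -1.06 to -0.71 with pracinostat and -1.68 to -1.04 with vorinostat, against a median over all genes of 0.093 and 0.149. At 14 days, 3.66% of 15593 genes had a difference as low or lower with pracinostat and 2.62% with vorinostat.

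**Figure D2:**
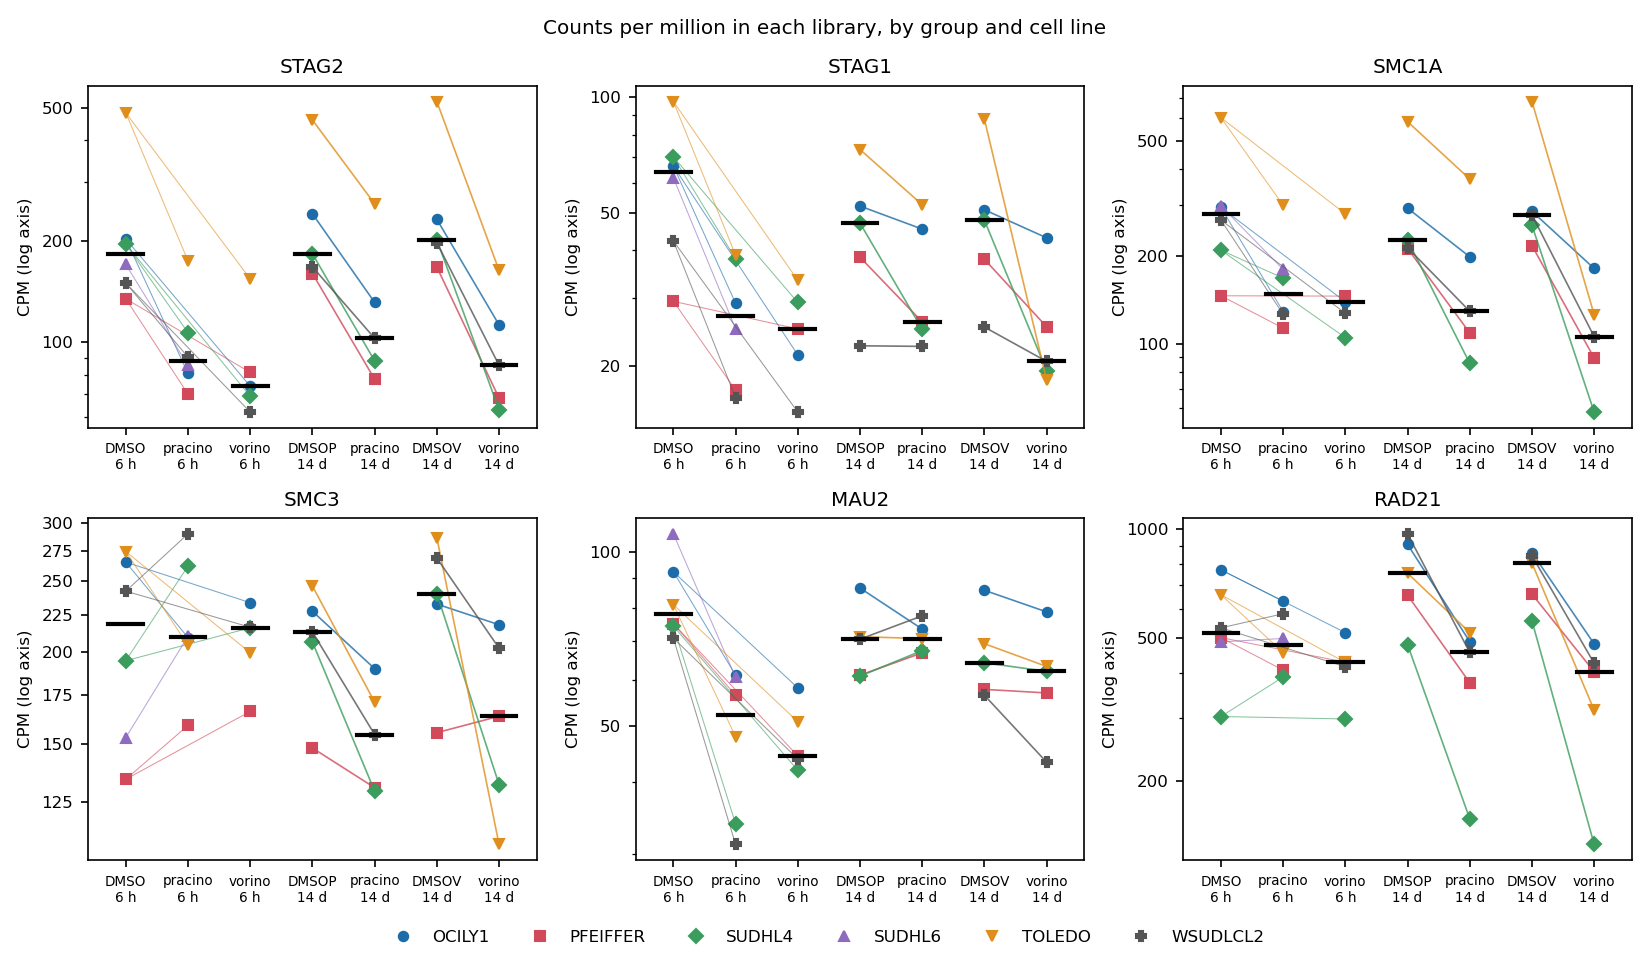
CPM (log axes, each with its own range) of 6 genes in every library by treatment group, with thin lines joining a cell line's drug library to its own DMSO library and black bars at group medians. STAG2 and SMC1A go down in both drugs at both times, MAU2 goes down in every line at 6 h, RAD21 in every line at 14 days, and TOLEDO (inverted triangles) is the highest library for STAG2 in every group.

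STAG1, the less abundant SA subunit, fell with STAG2 at 6 h. DMSO libraries held 29.48 CPM at the lowest, 64.01 CPM at the median and 97.48 CPM at the highest, and pracinostat libraries 16.55, 27.08 and 38.87 CPM. Vorinostat libraries held 21.39 CPM in OCILY1, 24.99 in PFEIFFER, 29.28 in SUDHL4, 33.43 in TOLEDO and 15.19 in WSUDLCL2. The groups overlapped only through the low DMSO value of PFEIFFER. The change was -1.15 on the log2 scale with pracinostat (SE 0.15, edgeR adjusted p = 2.54e-05, 6 of 6 lines) and -1.26 with vorinostat (SE 0.17, edgeR adjusted p = 1.82e-05, 5 of 5 lines). Both calls held without any single line.

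At 14 days the STAG1 difference was closer to 0 than at 6 h in 4 of 5 lines with pracinostat and in 2 of 5 with vorinostat. In the order OCILY1, PFEIFFER, SUDHL4, TOLEDO and WSUDLCL2, STAG1 stood at 52.14, 38.40, 47.08, 73.14 and 22.59 CPM with DMSOP and at 45.42, 26.06, 24.94, 52.57 and 22.51 CPM with pracinostat. With DMSOV it was 51.00, 37.91, 47.89, 87.67 and 25.27 CPM, and with vorinostat 43.11, 25.31, 19.47, 18.41 and 20.57 CPM. The 2 drugs differed most in TOLEDO, whose within-line difference was -0.47 with pracinostat and -2.23 with vorinostat. The pracinostat difference of -0.42 did not pass (SE 0.21, edgeR adjusted p = 0.164, 5 of 5 lines lower), and STAG1 fell by 0.86 with vorinostat (SE 0.22, edgeR adjusted p = 0.00688, 5 of 5 lines). Of the merged exon bases of STAG1, 21.2% also lie in exons of PCCB, and whether the counting used strand is not given in the sources used here. PCCB itself had differences of -0.58 and -0.70 at 6 h and of -0.58 and -0.72 at 14 days (pracinostat, then vorinostat). Its median level was 62.8 CPM, above the 33.4 CPM of STAG1, and its part in the STAG1 counts was not tested.

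With both subunits lower at 6 h, their proportion moved little. STAG2 made up 72.6% to 82.6% (median 75.9%) of the summed STAG1 and STAG2 RPKM in DMSO at 6 h, 72.6% to 83.9% (median 78.0%) with pracinostat and 69.3% to 81.6% (median 76.8%) with vorinostat. At 14 days the share was 78.9% to 87.7% (median 81.6%) with DMSOP and 73.5% to 82.5% (median 77.2%) with pracinostat, and each of the 5 lines had the lower share with drug. It was 80.2% to 88.2% (median 81.4%) with DMSOV and 71.5% to 89.5% (median 75.6%) with vorinostat, lower in all lines but TOLEDO, which rose from 85.1% to 89.5%. These shares contain the readout that the set was built on and carry no test.

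The ring genes moved apart at 6 h, with SMC1A lower and SMC3 not. SMC1A stood at 146.1 CPM at the lowest, 280.4 CPM at the median and 600.2 CPM at the highest in DMSO, and at 113.0, 148.5 and 299.8 CPM with pracinostat. With vorinostat it stood at 139.3 CPM in OCILY1, 145.7 in PFEIFFER, 104.8 in SUDHL4, 279.7 in TOLEDO and 127.2 in WSUDLCL2. PFEIFFER, which had the lowest DMSO level, was level with its vorinostat library, whereas the other 4 lines differed by -1.101 to -0.998 on the log2 scale. SMC1A fell by 0.79 with pracinostat (SE 0.14, edgeR adjusted p = 0.000418, 6 of 6 lines) and by 0.87 with vorinostat (SE 0.16, edgeR adjusted p = 0.0003, 5 of 5 lines).

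SMC3 at 6 h stood at 134.4 CPM at the lowest, 218.5 CPM at the median and 274.2 CPM at the highest in DMSO, and at 159.1, 209.9 and 289.8 CPM with pracinostat. It was lower in 2 of 6 lines with pracinostat (0.10, SE 0.13, edgeR adjusted p = 0.589) and in 3 of 5 with vorinostat (-0.06, SE 0.13, edgeR adjusted p = 0.754). SMC1A therefore had the more negative difference of the pair in 6 of 6 and 5 of 5 lines, by a median of 0.80 and 0.90 on the log2 scale. RAD21, the subunit that separase cleaves at anaphase, did not pass with pracinostat at 6 h (-0.11, SE 0.11, edgeR adjusted p = 0.494, 3 of 6 lines lower). It fell by 0.37 with vorinostat (SE 0.12, edgeR adjusted p = 0.0208, 5 of 5 lines), a call lost without OCILY1 (-0.34, edgeR adjusted p = 0.0981) or TOLEDO (-0.31, edgeR adjusted p = 0.0802).

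At 14 days RAD21 was lower in every line with each drug. In the order OCILY1, PFEIFFER, SUDHL4, TOLEDO and WSUDLCL2 it stood at 907.6, 655.9, 478.4, 755.2 and 970.8 CPM with DMSOP and at 487.6, 375.0, 157.2, 516.7 and 455.0 CPM with pracinostat. With DMSOV it stood at 861.1, 660.4, 556.6, 804.8 and 844.0 CPM, and with vorinostat at 480.3, 402.3, 133.5, 314.9 and 424.5 CPM. SUDHL4 had the lowest value in all 4 groups, and the vorinostat and DMSOV groups did not overlap. RAD21 fell by 0.97 with pracinostat (SE 0.16, edgeR adjusted p = 0.00135) and by 1.16 with vorinostat (SE 0.16, edgeR adjusted p = 0.000118), in 5 of 5 lines each. Exons of other genes, UTP23 among them, cover 15.4% of the RAD21 exon bases; UTP23 differed by 0.14 and -0.18 at 14 days and its median level was 51.3 CPM against 487.6 CPM for RAD21.

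SMC1A at 14 days stood at 292.7, 212.5, 227.1, 581.6 and 213.9 CPM with DMSOP and at 199.0, 108.9, 85.46, 368.8 and 129.2 CPM with pracinostat, in the same order of lines. With DMSOV it stood at 285.5, 217.5, 255.4, 682.2 and 277.4 CPM, and with vorinostat at 181.4, 89.17, 58.06, 125.7 and 105.6 CPM. No vorinostat library reached the lowest DMSOV library. The fall was 0.85 with pracinostat (SE 0.20, edgeR adjusted p = 0.00709) and 1.52 with vorinostat (SE 0.20, edgeR adjusted p = 7.34e-05), in 5 of 5 lines each and without any single line. SMC3 did not pass with pracinostat (-0.41, SE 0.16, edgeR adjusted p = 0.0752, 5 of 5 lines lower), but did when both 14-day DMSO groups were averaged as its control (-0.50, edgeR adjusted p = 0.0121). With vorinostat it fell by 0.48 (SE 0.16, edgeR adjusted p = 0.0265, 4 of 5 lines), a call that did not hold without SUDHL4, TOLEDO or WSUDLCL2 (edgeR adjusted p = 0.129, 0.144 and 0.0622). The ratio of SMC1A to SMC3 RPKM had medians of 0.525 and 0.341 with DMSOP and pracinostat, and of 0.500 and 0.222 with DMSOV and vorinostat.

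MAU2, the partner of NIPBL in the loader, fell at 6 h and did not pass at 14 days. DMSO libraries at 6 h held 70.95 CPM at the lowest, 78.12 CPM at the median and 107.5 CPM at the highest, and pracinostat libraries 31.19, 52.20 and 61.23 CPM. With vorinostat MAU2 stood at 58.19 CPM in OCILY1, 44.38 in PFEIFFER, 41.90 in SUDHL4, 50.87 in TOLEDO and 43.84 in WSUDLCL2. Every drug library lay below every DMSO library at 6 h, a separation that 2.89% of the 15315 tested genes showed with pracinostat and 5.82% with vorinostat, in either direction. MAU2 fell by 0.81 with pracinostat (SE 0.12, edgeR adjusted p = 4.66e-05, 6 of 6 lines) and by 0.74 with vorinostat (SE 0.12, edgeR adjusted p = 0.000147, 5 of 5 lines), and both calls held without any single line.

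At 14 days the MAU2 groups overlapped with each drug. MAU2 stood at 86.62, 61.21, 60.98, 71.35 and 70.65 CPM with DMSOP and at 73.55, 66.90, 67.52, 70.82 and 77.54 CPM with pracinostat, in OCILY1, PFEIFFER, SUDHL4, TOLEDO and WSUDLCL2. With DMSOV it stood at 85.84, 57.84, 64.3, 69.38 and 56.5 CPM, and with vorinostat at 78.76, 57.03, 62.16, 63.37 and 43.28 CPM. The WSUDLCL2 vorinostat library lay below every DMSOV library. The difference was 0.05 with pracinostat (SE 0.13, edgeR adjusted p = 0.814, lower in 2 of 5 lines) and -0.10 with vorinostat (SE 0.13, edgeR adjusted p = 0.561, lower in 5 of 5). NIPBL, whose protein activates the ring's ATPase, passed at 14 days and not at 6 h. At 6 h its medians were 119.6 CPM in DMSO, 115.2 CPM with pracinostat and 111.9 CPM with vorinostat, with differences of -0.04 and -0.10 that did not pass (edgeR adjusted p = 0.807 and 0.498). At 14 days NIPBL stood at 155.2, 154.4, 114.1, 182.5 and 144.2 CPM with DMSOP and at 98.39, 127.8, 78.46, 166.1 and 109.4 CPM with pracinostat. With DMSOV it stood at 147.0, 169.2, 117.4, 210.4 and 153.8 CPM, and with vorinostat at 112.7, 144.3, 76.16, 120.2 and 68.76 CPM. Each line was lower with drug, by 0.59 with vorinostat (SE 0.13, edgeR adjusted p = 0.00294) and by 0.38 with pracinostat (SE 0.13, edgeR adjusted p = 0.0468). The pracinostat call was lost without OCILY1, PFEIFFER or SUDHL4 (edgeR adjusted p = 0.218, 0.0963 and 0.151), and with no filter on low counts or one by treatment group (edgeR adjusted p = 0.0571 and 0.0512). MAU2 had the more negative difference of the loader pair in 6 of 6 and 5 of 5 lines at 6 h and in 0 of 5 lines with each drug at 14 days, counts that carry no test.

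WAPL, the release factor, was near its DMSO level at 6 h. Its medians were 126.7 CPM in DMSO, 129.1 CPM with pracinostat and 114.1 CPM with vorinostat (edgeR adjusted p = 0.486 and 0.91, differences 0.09 and -0.02, lower in 1 of 6 and 4 of 5 lines). At 14 days it stood at 185.8, 121.1, 159.2, 93.54 and 114.6 CPM with DMSOV and at 183.2, 90.73, 88.46, 61.02 and 82.26 CPM with vorinostat, from OCILY1 to WSUDLCL2 in the order used above. OCILY1 was unchanged to within 0.02 on the log2 scale and the other 4 lines were lower. WAPL fell by 0.44 with vorinostat (SE 0.12, edgeR adjusted p = 0.00768, 5 of 5 lines) and differed by -0.25 with pracinostat (SE 0.12, edgeR adjusted p = 0.126, 4 of 5 lines lower). Against the average of both 14-day DMSO groups the pracinostat difference passed (-0.30, edgeR adjusted p = 0.0315).

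The PDS5 genes, whose proteins bind the ring beside WAPL, had their most negative fitted differences with vorinostat at 14 days. PDS5A stood at 331.1, 334.0, 392.2, 343.8 and 305.9 CPM with DMSOV and at 254.2, 199.0, 166.3, 152.4 and 187.9 CPM with vorinostat, with no overlap between the groups. PDS5B stood at 64.50, 62.85, 166.5, 130.8 and 105.6 CPM with DMSOV and at 43.11, 51.34, 67.28, 61.56 and 56.79 CPM with vorinostat. They fell by 0.82 (SE 0.13, edgeR adjusted p = 0.000201) and by 0.80 (SE 0.13, edgeR adjusted p = 0.000296), in 5 of 5 lines each. Relative to their level, PDS5B values spread more widely than those of PDS5A over the DMSO libraries of both times. They ran from 43.88 to 166.5 CPM for PDS5B and from 223.0 to 392.2 CPM for PDS5A. With pracinostat at 14 days PDS5A fell by 0.43 (SE 0.12, edgeR adjusted p = 0.0209) and PDS5B by 0.47 (SE 0.13, edgeR adjusted p = 0.0158), in 5 of 5 lines each. The PDS5A call did not hold without PFEIFFER, SUDHL4 or TOLEDO (edgeR adjusted p = 0.119, 0.111 and 0.0506), nor the PDS5B call without OCILY1, SUDHL4 or WSUDLCL2 (edgeR adjusted p = 0.0631, 0.0617 and 0.0778).

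At 6 h the differences of the PDS5 genes were smaller. PDS5A had medians of 307.0 CPM in DMSO, 228.2 CPM with pracinostat and 234.7 CPM with vorinostat. It fell by 0.28 with pracinostat (SE 0.10, edgeR adjusted p = 0.0466, 6 of 6 lines) and by 0.35 with vorinostat (SE 0.11, edgeR adjusted p = 0.0188, 4 of 5 lines). Without OCILY1, SUDHL4, SUDHL6, TOLEDO or WSUDLCL2 the pracinostat call was lost (edgeR adjusted p = 0.172, 0.0636, 0.0505, 0.111 and 0.0893), as it was with library totals or no low-count filter (edgeR adjusted p = 0.126 and 0.0523), and so was the vorinostat call without OCILY1, TOLEDO or WSUDLCL2 (edgeR adjusted p = 0.106, 0.0515 and 0.0805). PDS5B did not pass with pracinostat (-0.18, SE 0.13, edgeR adjusted p = 0.314, 4 of 6 lines lower) or with vorinostat (-0.36, SE 0.14, edgeR adjusted p = 0.0531, 4 of 5 lines lower), though DESeq2 (adjusted p = 0.035) and the filter by treatment group (edgeR adjusted p = 0.0442) called the latter. In PFEIFFER both PDS5 genes were higher with vorinostat, and without that line the PDS5B difference was -0.55 (edgeR adjusted p = 0.00521).

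**Figure D3:**
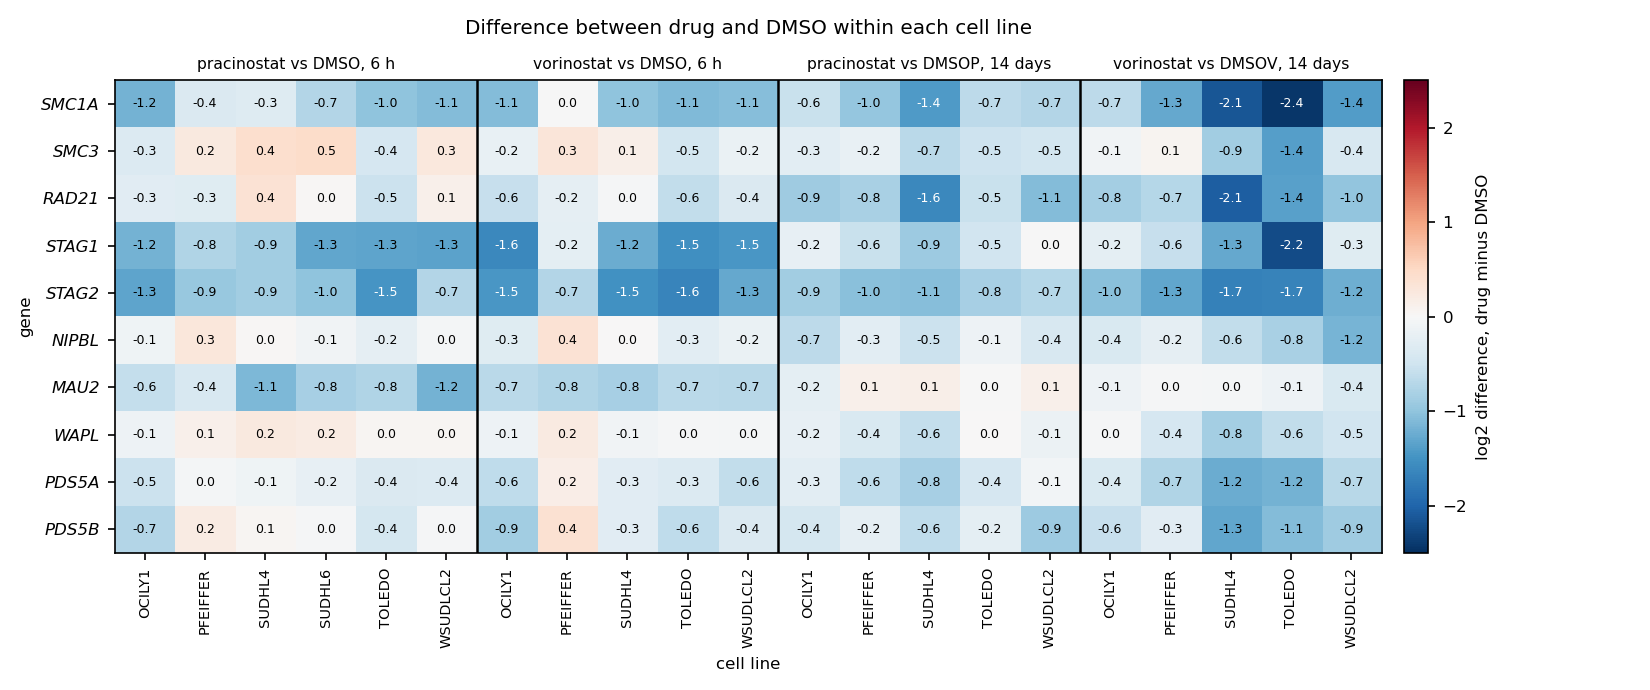
Log2 CPM difference between drug and DMSO (colour and printed value, rounded) for the 10 genes (vertical axis) in each cell line (horizontal axis), in 4 blocks by drug and time. The STAG2 row is below 0 throughout (-1.68 to -0.71), MAU2 is below 0 in every line at 6 h and lies between -0.38 and 0.15 at 14 days, and the lowest values are SMC1A in TOLEDO (-2.44) and STAG1 in TOLEDO (-2.23) with vorinostat at 14 days.

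Of the 9 genes other than STAG2, 4 were called lower by edgeR with pracinostat at 6 h (SMC1A, STAG1, MAU2 and PDS5A), where 16.2% of all tested genes were called lower, and 5 with vorinostat at 6 h (the same 4 and RAD21), where 18.3% were. At 14 days 5 were called lower with pracinostat (SMC1A, RAD21, NIPBL, PDS5A and PDS5B; 9.53% of all genes) and 8 with vorinostat (all but MAU2; 16% of all genes). The share of all genes called lower with pracinostat at 14 days was 5.98% without OCILY1, 4.3% without PFEIFFER and 5.63% without SUDHL4. None was called higher in the 4 comparisons, where 20%, 21.4%, 12.1% and 19.4% of all genes were. Median differences of the 9 genes were -0.18, -0.36, -0.42 and -0.80, in the order pracinostat and vorinostat at 6 h, then at 14 days, beside medians over all tested genes of 0.048, 0.029, 0.093 and 0.149. The groups were fully apart for MAU2 at 6 h with both drugs and, with vorinostat at 14 days, for SMC1A, RAD21, PDS5A and STAG2, where 5.62% of all genes were apart. With pracinostat at 14 days none of the 10 was, beside 2.8% of all genes.

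**Figure D4:**
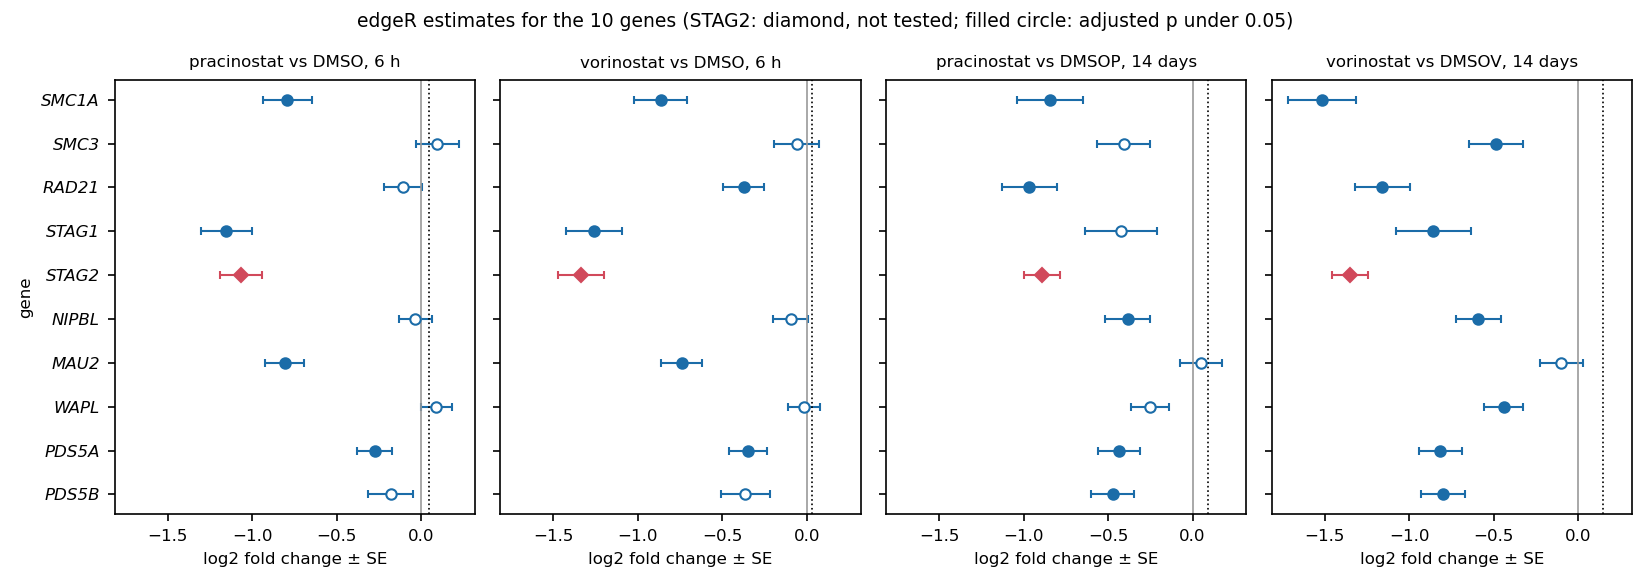
Log2 fold change (horizontal axis) with its SE (bars) for each gene in the 4 drug comparisons. Filled circles are edgeR adjusted p under 0.05, open circles are not, red diamonds are STAG2 (not tested), and the dotted line is the median of all tested genes. The 8 filled circles with vorinostat at 14 days run from WAPL (-0.44) to SMC1A (-1.52), and MAU2 is filled at 6 h only.

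In PFEIFFER none of the 10 genes was 2-fold lower with either drug at 6 h, while 1 to 3 were in each other line; over all genes, 5.65% and 8.63% were 2-fold lower in PFEIFFER, against 5.68% to 10.7% with pracinostat and 7.52% to 10.6% with vorinostat in the other lines. With vorinostat at 14 days 7 of the 10 were 2-fold lower in TOLEDO and 6 in SUDHL4, against 1 in OCILY1. Of all genes, 12.5%, 13.7% and 4.94% were. At both times the 10 include STAG2, on whose drug differences the set was selected, so these counts carry no test. The OCILY1 gene was STAG2 itself (-1.04), which was also among those of TOLEDO (-1.67) and SUDHL4 (-1.68).

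Whether a drug's effect differed between the times was tested in 1 model with both times. SUDHL6, with DMSO and pracinostat libraries at 6 h only, entered the 6 h side of the pracinostat term alone. The RAD21 difference was lower at 14 days than at 6 h by 0.88 with pracinostat (SE 0.21, edgeR adjusted p = 0.00456) and by 0.82 with vorinostat (SE 0.22, edgeR adjusted p = 0.00722). MAU2 went the other way, with its difference higher at 14 days by 0.84 with pracinostat (SE 0.16, edgeR adjusted p = 0.000717) and by 0.60 with vorinostat (SE 0.17, edgeR adjusted p = 0.0102). The last call was lost without SUDHL4 (0.57, edgeR adjusted p = 0.0567) and with library totals in place of TMM scaling (0.47, edgeR adjusted p = 0.0607). With vorinostat NIPBL, WAPL and PDS5A also had lower differences at 14 days, of -0.53, -0.46 and -0.50 (edgeR adjusted p = 0.0208, 0.0285 and 0.0353). The NIPBL call did not hold without SUDHL4, TOLEDO or WSUDLCL2 (edgeR adjusted p = 0.106, 0.0769 and 0.0767), nor the WAPL call without PFEIFFER, SUDHL4, TOLEDO or WSUDLCL2 (edgeR adjusted p = 0.126, 0.101, 0.0856 and 0.0639), nor the PDS5A call without PFEIFFER, SUDHL4, SUDHL6 or TOLEDO (edgeR adjusted p = 0.161, 0.167, 0.0527 and 0.161). In all, 2 of the 9 genes passed with pracinostat (17.4% of 16999 genes) and 5 with vorinostat (21.2%). For STAG2 the time difference was 0.16 with pracinostat (SE 0.16) and -0.05 with vorinostat (SE 0.17). STAG1 did not pass with pracinostat (0.71, SE 0.28, edgeR adjusted p = 0.0765) or vorinostat (0.36, SE 0.29, edgeR adjusted p = 0.415) in edgeR, whereas DESeq2 called the pracinostat term (0.76, DESeq2 adjusted p = 0.041).

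The DMSO cultures differed between the times too. RAD21 was higher at 14 days than at 6 h by 0.47 (SE 0.09, edgeR adjusted p = 0.00249) and STAG1 lower by 0.34 (SE 0.11, edgeR adjusted p = 0.0449), and no other of the 9 genes passed; 18% of 16256 genes did. The STAG1 call was not made with DMSOP alone or with DMSOV alone as the 14-day side, without OCILY1, SUDHL4, TOLEDO or WSUDLCL2, or by DESeq2, which called NIPBL and MAU2 beside RAD21. STAG2 differed by 0.16 (SE 0.08).

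The drugs were compared within lines, against the shared DMSO libraries at 6 h and each against its own DMSO at 14 days. None of the 9 genes was called different by edgeR or by DESeq2 at either time; at an unadjusted p under 0.05, 1 gene was at 6 h and 2 were at 14 days, beside 8.31% and 3.65% of all genes. After adjustment edgeR called 0.0131% and 0 of all genes. The pracinostat minus vorinostat difference at 6 h was 0.27 for RAD21 (95% interval -0.01 to 0.54), 0.11 for STAG1 (-0.27 to 0.48) and -0.07 for MAU2 (-0.35 to 0.21). At 14 days it was 0.67 for SMC1A (95% interval 0.07 to 1.27), 0.38 for PDS5A (-0.00 to 0.76), 0.43 for STAG1 (-0.23 to 1.10) and 0.19 for RAD21 (-0.30 to 0.69). For STAG2, given without an interval, it was 0.27 at 6 h and 0.46 at 14 days, with pracinostat the higher in 4 of 5 and 5 of 5 lines. These intervals are for single genes and are not adjusted for the number of genes. They use the residual degrees of freedom alone, unlike the edgeR test. An interval that holds 0 can therefore go with an unadjusted p under 0.05. Whether the doses were matched is not given in the sources used here.

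Among the genes whose drug differences ran most like those of STAG2 over the 21 pairs of a drug library and its DMSO library were SEH1L of the nuclear pore (Pearson r = 0.845), the RNA-binding protein SYNCRIP (0.845) and the ribosome recycling factor ABCE1 (0.843). SEH1L had differences of -0.96 and -1.12 at 6 h and of -0.84 and -1.48 at 14 days (pracinostat, then vorinostat). Those least like it were BIN3 (-0.867), FBXO44 (-0.858) and TPRG1L (-0.851), with TPRG1L at 0.95, 1.32, 0.88 and 1.26 in the 4 comparisons. Among the cohesin genes r was 0.730 for SMC1A, 0.695 for STAG1, 0.654 for PDS5A and 0.612 for PDS5B, then 0.523 for SMC3, 0.493 for WAPL, 0.358 for RAD21, 0.353 for NIPBL and -0.016 for MAU2. Over 10160 genes the median r was 0.0503 and the 5th and 95th percentiles were -0.481 and 0.550. The pairs share lines and, at 6 h, DMSO libraries, so that r is a description of these 21 pairs.

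CTCF, the DNA-binding protein that stops loop extrusion by cohesin, was lower in every line with both drugs at both times. Its medians at 6 h were 156.6 CPM in DMSO (127.1 to 193.4), 69.4 CPM with pracinostat (55.2 to 91.1) and 58.7 CPM with vorinostat (51.2 to 68.7). Neither drug group overlapped with DMSO, a separation that 2.89% of tested genes showed with pracinostat and 5.82% with vorinostat, in either direction. CTCF fell by 1.17 with pracinostat (SE 0.13, edgeR adjusted p = 6.67e-06) and by 1.39 with vorinostat (SE 0.15, edgeR adjusted p = 1.92e-06) at 6 h, and by 0.57 (SE 0.15, edgeR adjusted p = 0.0137) and 0.97 (SE 0.15, edgeR adjusted p = 0.000239) at 14 days. Of the loop boundary list of 3 genes (CTCF, ZNF143 and YY1), 2 fell with pracinostat and 3 with vorinostat at 6 h. Of all genes, 16.2% and 18.3% did. At 14 days 1 and 2 of the list fell, where 9.53% and 16% of all genes fell. YY1, a DNA-binding looping factor, fell by 0.27 with pracinostat at 6 h and by 0.27 with vorinostat at 14 days, and ZNF143, a zinc finger protein, by 0.69 with vorinostat at 6 h.

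Of the 11 factors that establish and protect cohesion, more were called lower at 14 days than at 6 h. With pracinostat and vorinostat at 6 h, 2 and 1 of 11 rose and 2 and 2 fell, where 20% and 21.4% of all genes rose and 16.2% and 18.3% fell. At 14 days none rose while 7 and 8 fell, where 9.53% and 16% of all genes fell. ESCO2, which acetylates SMC3 in S phase, had medians of 36.4 CPM in DMSO, 62.3 CPM with pracinostat and 87.4 CPM with vorinostat at 6 h. It rose by 0.68 (SE 0.16, edgeR adjusted p = 0.00397, 6 of 6 lines) and by 0.71 (SE 0.17, edgeR adjusted p = 0.00379, 5 of 5 lines), and at 14 days it fell by 1.65 (SE 0.34, edgeR adjusted p = 0.00416) and fell by 1.98 (SE 0.35, edgeR adjusted p = 0.000627). CDCA5, encoding sororin, which counters WAPL, did not pass at 6 h (0.29 and 0.13) and fell at 14 days, with differences of -1.59 and -1.86. SGO2, a shugoshin that shields cohesin at centromeres, rose by 0.68 with pracinostat at 6 h. At 6 h DDX11, a helicase, fell by 0.53 and 0.43, and CHTF8, of a clamp loader, by 0.45 and 0.83. DSCC1, another part of that clamp loader, fell by 1.88 with vorinostat at 14 days. HDAC8, the deacetylase that removes the SMC3 acetyl mark and is itself of the family the drugs act on, did not pass in any of the 4 comparisons (differences -0.07 to 0.22), nor did ESCO1 (-0.35 to -0.10).

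Of the 5 genes for cohesin removal at mitosis, 1 rose with each drug at 6 h, where 20% and 21.4% of all genes rose. At 14 days 5 and 4 fell, where 9.53% and 16% of all genes fell. The riser was PTTG1, encoding securin, the inhibitor of separase. It rose by 1.43 with pracinostat (SE 0.15, edgeR adjusted p = 2.91e-06, 6 of 6 lines) and by 1.34 with vorinostat (SE 0.16, edgeR adjusted p = 4.91e-06, 5 of 5 lines). PLK1, the kinase that strips cohesin from arms, fell by 0.73 with vorinostat at 6 h and fell at 14 days with both drugs (-1.72 and -2.18). ESPL1, separase itself, did not pass at 6 h (0.33 and 0.12) and fell by 2.13 with vorinostat at 14 days, and BUB1, a kinetochore kinase, fell by 1.69 with pracinostat at 14 days.

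Related complexes are set beside the same shares of all genes. Of 8 condensin genes 1 rose at 6 h with each drug (NCAPD3, by 0.34 and 0.34), 0 and 2 fell (with vorinostat NCAPD2 by 0.39 and NCAPH by 0.38), and 8 and 7 fell at 14 days, with NCAPH at -1.70 and -2.28. NCAPG fell by 1.59 with pracinostat and fell by 2.14 with vorinostat at 14 days. Of 9 genes of the SMC5/6 complex and its partners, 4 rose and 2 fell with pracinostat at 6 h, 2 and 2 with vorinostat, 0 and 1 with pracinostat at 14 days and 2 and 4 with vorinostat; all genes gave 20% and 16.2%, 21.4% and 18.3%, 12.1% and 9.53%, and 19.4% and 16%. NSMCE2, a SUMO ligase, rose by 0.65 and 0.55 at 6 h and SLF2 fell by 0.62 and 0.53. SMC5 and SLF2 fell by 0.79 and 0.77 with vorinostat at 14 days, where NSMCE3 and NSMCE1 rose by 0.87 and 0.75, and SLF1 fell by 0.80 with pracinostat. SLF1 rose by 0.50 with pracinostat at 6 h. SMC6 rose by 0.28 with vorinostat at 6 h, and NSMCE4A fell by 0.44 and 0.46. Of 4 meiotic cohesin genes, 3 were in the table. STAG3, the meiotic SA subunit, rose by 0.83 (SE 0.26, edgeR adjusted p = 0.0166, 6 of 6 lines) and 0.73 (SE 0.28, edgeR adjusted p = 0.0458, 4 of 5 lines) at 6 h from a low level (median 5.59 CPM in DMSO), and REC8 rose by 0.86 with vorinostat at 14 days.

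**Figure D5:**
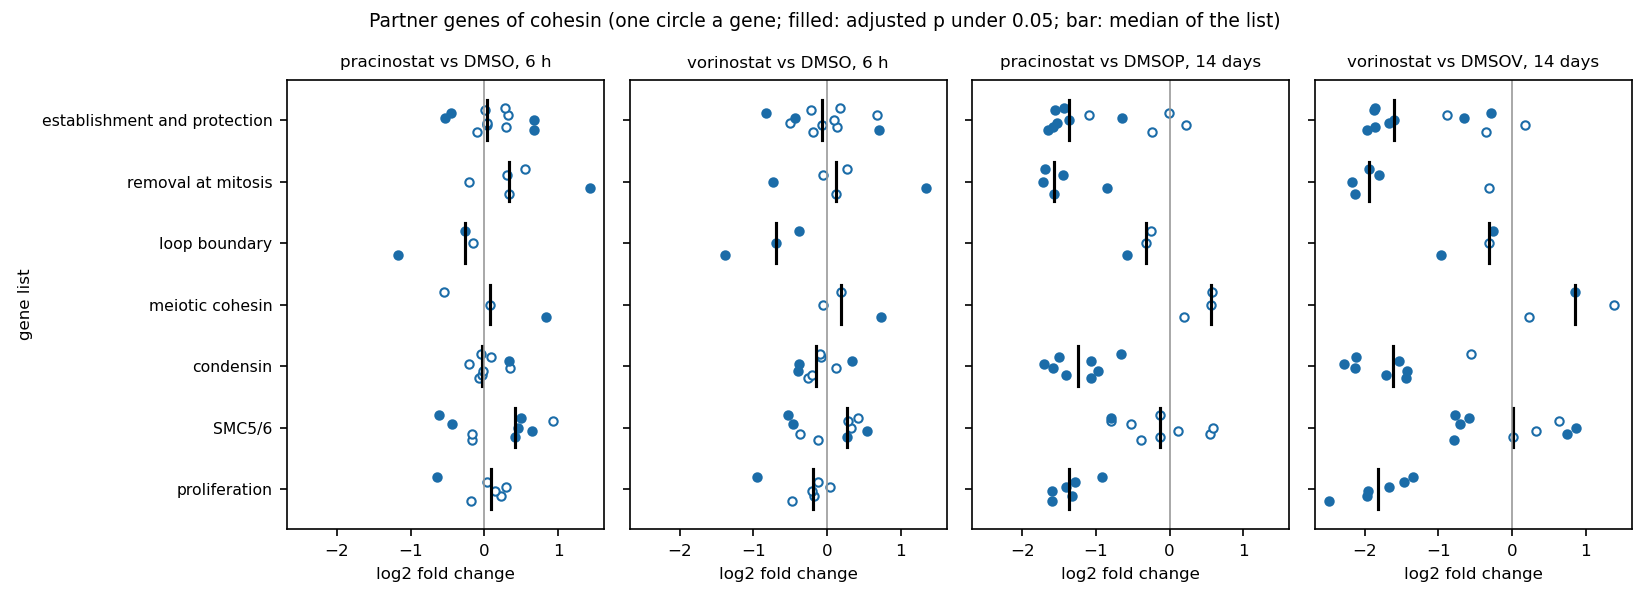
Log2 fold change (horizontal axis) of each gene in 7 lists (vertical axis) in the 4 drug comparisons, with filled circles for edgeR adjusted p under 0.05 and black bars at list medians. At 14 days the medians of the establishment, removal, condensin and proliferation lists lie between -1.24 and -1.95, against -0.19 to 0.33 at 6 h.

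Proliferation genes and the mitochondrial share of counts moved with the 14-day results. All 6 proliferation genes (MKI67, TOP2A, CCNB1, CDK1, PCNA and MCM2) fell with each drug at 14 days, with list medians of -1.36 and -1.82. MCM2 alone fell at 6 h, by 0.64 and 0.95. Of all genes, 9.53% and 16% fell at 14 days, and 16.2% and 18.3% at 6 h. MKI67 (-2.49) and TOP2A (-1.96) fell most with vorinostat at 14 days, and CCNB1 (-1.60) and MKI67 (-1.60) with pracinostat. Mitochondrial transcripts took 11.1% to 17.0% of counts with pracinostat and 10.5% to 17.5% with vorinostat at 14 days, against 6.45% to 11.0% with DMSOP and 6.76% to 12.0% with DMSOV, and 5.30% to 11.8% over all 6 h libraries. Summed CPM of the 3 myeloid markers in the table were 0.78 to 19.5 with pracinostat and 1.08 to 37.1 with vorinostat at 14 days, against 1.67 at most in DMSO at that time. The 2 NK markers reached 18.2 and 17.1 CPM with the drugs against 1.53 CPM at most in DMSO, and the endothelial marker PECAM1 29.2 and 26.6 CPM against 9.35 CPM. PECAM1 reached 36.4 CPM in DMSO at 6 h, however. The T cell sum went the other way at 14 days, with at most 648.1 and 658.7 CPM with the drugs against 1113.3 (DMSOP) and 1150.8 CPM (DMSOV). For the stromal sum these were 56.0 and 36.5 CPM against 50.4 and 65.2 CPM. The part of these markers, of proliferation and of the mitochondrial share in the lower RAD21, NIPBL, SMC1A, WAPL and PDS5 values at 14 days was not tested.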

How the data were processed

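RNA from 37 cultures of 6 lymphoma cell lines was sequenced from 1 microgram of total RNA each, per the labels' protocols; 1 further listed sample had no column and was not analysed here. The authors deposited raw counts per gene, made with STAR on hg38 per the submitters' processing notes, which also name edgeR; no source used here gives versions, annotation or use of strand. No other per-sample column (0) was left out of the count table, and a table of normalized values was not used. Symbols and places came from GENCODE 29 by identifier (17859 of 18011 matched).

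Counts were filtered with filterByExpr on the full design (minimum count 10), scaled by TMM and tested with edgeR 4.0.16 (R 4.3.3) quasi-likelihood tests, with the cell line as a block because each line gave 1 library per treatment and time. Each time was fitted apart, and both together for the difference between times; the 14-day model used DMSOP and DMSOV as the controls of their drugs. Benjamini-Hochberg adjustment ran over all tested genes, with a threshold of 0.05. The labels do not say whether a line's libraries were grown apart, so p-values measure only the spread between these samples, which may in part be technical. Within-line differences are of log2 CPM with a prior count of 2. RPKM used merged exon lengths. Intervals of the drug differences used the residual degrees of freedom.

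The genes, the lists and the tests were chosen with earlier results of these data known. The text names all 10 cohesin genes, 6 partners of interest (HDAC8, ESCO1, ESCO2, CDCA5, CTCF and STAG3), from each list up to 2 called genes with the largest rise and fall per comparison, and the 5 genes most and 3 least like STAG2, among genes whose mean log2 CPM was 2 or above; some genes that this rule or the marker lists hold are not reported here. The code was tested on simulated counts with known changes. Alternatives were DESeq2 1.42.0, library totals, no filter, no block, other 14-day controls, each line left out, and, added after seeing the data, a filter by treatment group. Promoters are RefSeq sequences of GRCh38.p14.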

Additional observations from a re-analysis of the deposited data

Results flagged for a closer look

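In PFEIFFER the vorinostat difference at 6 h stood apart from those of the other 4 lines for 3 genes, by Dixon's 95% criterion for the gap to the nearest line: SMC1A (-0.004), STAG1 (-0.236) and WAPL (0.230). Of 40 sets of lines checked, 3 had such a line, and chance alone gives about 1 in 20.

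The difference between drug and DMSO changed between 6 h and 14 days, by an interaction term in edgeR, for RAD21 with pracinostat (-0.88, adjusted p = 0.00456) and vorinostat (-0.82, adjusted p = 0.00722) and for MAU2 with pracinostat (0.84, adjusted p = 0.000717) and vorinostat (0.60, adjusted p = 0.0102). With vorinostat it also changed for NIPBL (-0.53, adjusted p = 0.0208), WAPL (-0.46, adjusted p = 0.0285) and PDS5A (-0.50, adjusted p = 0.0353). These calls, and that of MAU2 with vorinostat, were each lost when certain single lines were left out, as given above. RAD21 was itself higher in DMSO at 14 days than at 6 h, by 0.47 (SE 0.09). Its medians at 6 h and 14 days were 476.0 and 455.0 CPM with pracinostat and 426.9 and 402.3 CPM with vorinostat. In DMSO they were 516.4 CPM at 6 h, and 755.2 CPM (DMSOP) and 804.8 CPM (DMSOV) at 14 days. SUDHL6 is part of the 6 h medians of DMSO and pracinostat and of no 14-day median.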

How the results depend on the processing

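Without the replicate block (the cell line left out of the model, with the same genes tested), the number of the 9 genes called fell from 4 to 2 with pracinostat and from 5 to 2 with vorinostat at 6 h, from 5 to 0 and from 8 to 2 at 14 days, and to 0 for the change between times with either drug and for DMSO between times. Over all genes, calls without it went from 5543 to 502, 6068 to 1007, 3367 to 7 and 5520 to 643 in the 4 drug comparisons. With pracinostat at 14 days they numbered 5357 with both DMSO groups averaged, and 1516 to 2889 with 1 line left out. With library totals, or with DMSOP and DMSOV averaged as the control, 5 genes rather than 2 changed between times with pracinostat. With DMSOP alone or DMSOV alone at 14 days, 1 gene rather than 2 differed between times in DMSO. Leaving out each line in turn gave 3 to 4 genes (pracinostat) and 3 to 6 (vorinostat) at 6 h, 2 to 4 and 7 to 8 at 14 days, 2 to 3 and 1 to 6 for the change between times, 1 to 2 in DMSO between times, and 0 to 0 between the drugs. The cause of these shifts was not tested. Single genes kept their direction in all alternatives for called results. Of the comparisons with 1 line left out, 302 kept their side of the threshold, 34 lost it and 4 gained it. With other settings these numbers were 299, 28 and 13. The totals cover drug against DMSO and the change between times, for all 10 genes. They include STAG2, for which no test is given, so they are not totals of the 9 tested genes. STAG2 ranged from -1.14 to -0.98 and from -1.50 to -1.25 at 6 h (pracinostat, then vorinostat), and from -0.95 to -0.84 and from -1.44 to -1.29 at 14 days. Library totals moved the median of all genes for the change between times from 0.077 to -0.055 with pracinostat and from 0.098 to -0.032 with vorinostat, and the share of calls that were higher from 47.7% to 31.2% and from 45.3% to 33.4%. For pracinostat at 6 h that share went from 55.2% to 65.5%. Depth was lowest for STAG1, with counts down to 57 in a library and SEs of 0.15 to 0.22 in the comparisons of drug with DMSO, against 0.10 to 0.14 for STAG2. SMC1A, with counts down to 170, had SEs of 0.14 to 0.20, and MAU2, with counts down to 141, of 0.12 to 0.13. What depth adds to those SEs was not tested.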
